A study of Mus musculus with 4 samples.

Results

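The 39 endothelial and angiogenesis genes described here are the VEGF ligands and receptors, the angiopoietins and their Tie receptors, endothelial junction and surface proteins, endothelial transcription factors, and members of the Notch, apelin, endothelin and leukocyte adhesion systems. They were measured in whole mouse hearts after transverse aortic constriction (TAC), an operation that narrows the aorta and loads the left ventricle with pressure, and after a sham operation. Members were the genes on a list, each read from the array probes named by one of its RefSeq or Ensembl transcripts, and the brightest of these probes by mean processed signal stood for the gene. All 39 listed genes had a probe, 51 probes in total, out of 21762 genes that had a probe named by 1 gene. Hearts of male mice were taken 2 or 8 weeks after sham or TAC surgery, when the mice were, by the labels, 10 or 16 weeks old respectively. The methods of the study give the strain as C57BL/6J and an older age at surgery than these labels allow. RNA of 4 to 6 mice, 500 ng from each, was pooled for each of the 4 conditions and hybridized to 1 array per condition. The spread between mice is therefore not measured, no p-value, standard error or interval is given, and each fold change is the ratio of 2 pools.

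Endothelial cells line every vessel of the heart. The receptors encoded by Kdr and Flt1 bind VEGF-A, and endothelial cells grow toward it mainly through that of Kdr. Angiopoietin 1, made by cells around the vessel, keeps the vessel quiet through the receptor Tie2. At the front of a growing vessel the Notch ligand Dll4 and its receptor Notch1 decide which cells lead and which follow. Endothelial cells also set vessel tone through nitric oxide and endothelin, and in an inflamed tissue they display selectins and adhesion molecules that catch leukocytes. In pressure overload the myocyte grows, and the capillary bed has to supply a larger muscle.

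Of the 6 members that passed a 1.5-fold threshold at either time, 4 had a promoter in the RefSeq table of build GRCm38.p6, namely Cldn5, Esm1, Notch1 and Apln. The 250 bases before their annotated starts are shown, 5′ to 3′ on the strand of the gene, because they lie just before the starts of members past the threshold. They lie at chr16:18776597-18776846 on the plus strand for Cldn5, chr13:113209409-113209658 on the plus strand for Esm1, chr2:26503823-26504072 on the minus strand for Notch1 and chrX:48034854-48035103 on the minus strand for Apln. Capitals mark matches to either of a pair of motifs, the ETS core AGGAAG and the hypoxia response element core GCGTG, each searched on both strands. Angpt1 and Aplnr are the other two members past the threshold.
Cldn5: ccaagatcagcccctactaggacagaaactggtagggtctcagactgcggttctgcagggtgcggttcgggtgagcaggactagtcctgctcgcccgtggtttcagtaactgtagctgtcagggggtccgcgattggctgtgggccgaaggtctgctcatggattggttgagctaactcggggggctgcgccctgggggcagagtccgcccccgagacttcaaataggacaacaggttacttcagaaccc
Esm1: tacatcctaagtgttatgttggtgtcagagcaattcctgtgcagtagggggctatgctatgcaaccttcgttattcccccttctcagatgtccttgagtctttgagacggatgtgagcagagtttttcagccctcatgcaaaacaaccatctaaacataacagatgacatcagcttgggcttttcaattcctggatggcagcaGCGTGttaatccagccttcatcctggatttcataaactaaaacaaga
Notch1: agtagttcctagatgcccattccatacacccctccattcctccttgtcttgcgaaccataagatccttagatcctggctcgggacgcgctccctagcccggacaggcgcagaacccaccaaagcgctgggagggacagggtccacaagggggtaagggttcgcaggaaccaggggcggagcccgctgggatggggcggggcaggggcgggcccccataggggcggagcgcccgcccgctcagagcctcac
Apln: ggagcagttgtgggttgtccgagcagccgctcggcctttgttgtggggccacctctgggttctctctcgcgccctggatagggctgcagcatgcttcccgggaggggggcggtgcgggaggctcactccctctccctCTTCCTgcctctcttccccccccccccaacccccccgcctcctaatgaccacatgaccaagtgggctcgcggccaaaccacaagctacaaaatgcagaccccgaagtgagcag
The Notch1 promoter was 66% G and C with 16 CG pairs, and that of Apln 65.2% with 12. Cldn5 held 59.6% with 12 CG pairs, and Esm1 44% with 3. The medians over all 32851 promoters of the table were 52.4% and 6 CG pairs. Esm1 held 1 GCGTG, 42 bases before its start, and Apln held 1 AGGAAG, read on the opposite strand as CTTCCT, 107 bases before its start. Of the 26 members with an entry, 12 held AGGAAG and 12 held GCGTG in this window, beside 29.48% and 28.16% of all promoters. A member counted when any of its promoters held the motif, while these shares are over single promoters. The counts and shares given here are thus in unlike units. The hypoxia core ACGTG was present in 1 member, Vegfa, and in 16.57% of all promoters, and GTGGGAA, the core bound by the Notch effector RBPJ, in 2 members, Kdr and Tie1, and in 5.415% of all promoters. These matches describe the letters in the window and not binding.

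Each level below is a normalised signal, the processed signal of the probe divided by the 75th percentile of its array, and a log2 change is the log2 ratio of 2 such signals. A gene was tested in a pair of arrays when its probe was well above background on both, and a member was called when its signals then differed by more than 1.5-fold. To measure the error of a spot, the SD of log2 signal between copies on 1 array was taken for the probes that carry 10 copies. The SD of a log2 ratio of 2 such spots was derived from it. For those well above background it was 0.18, or 0.35 for signals below 0.25 and 0.11 above. This spot noise is the only error that the arrays measure, and it holds nothing of the spread between arrays or between mice. The 75th percentile lay between 206.0 and 248.5 units of signal, between 67.21% and 70.11% of genes were well above background on an array, and no spot was saturated. The hypertrophy markers Nppa, Nppb, Myh7 and Acta1 were all over 2-fold higher on the TAC array than on the sham array at both times, which fits the labels. The 10 genes taken to mark endothelial cells in general, Pecam1, Cdh5, Kdr, Tie1, Tek, Esam, Cldn5, Erg, Emcn and Egfl7, were well above background on all 4 arrays.

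Most of the endothelial and angiogenesis genes lay slightly higher after TAC at 2 weeks, and few passed 1.5-fold. At 2 weeks 36 of the 39 members were tested, and 3 rose and 2 fell. Cldn5, Esm1 and Aplnr rose, which is 8.33% of those tested beside 4.17% of all 14469 genes tested. Angpt1 and Notch1 fell, which is 5.56% beside 2.56% of all genes. The median log2 change of the members was 0.19, or 1.14-fold, whereas the median over all genes was -0.0078. Of the members 28 lay above 0 and 8 below, so that 77.78% were above, beside 48.34% of all genes. At 8 weeks 37 members were tested, and Esm1 was the only one of them to rise, 2.7% beside 5.35% of all 14628 genes tested. Angpt1, Notch1 and Apln fell, which is 8.11% beside 3.99%. The median log2 change at 8 weeks was 0.031, with 21 members above 0 and 16 below, and -0.011 over all genes. The share above 0 was 56.76% of members, beside 48.07% of all genes. By its brightest probe and with this normalisation, no member passed 2-fold at either time. Angpt1 came nearest, at 1.96-fold and 1.98-fold lower. Over all genes 0.912% were over 2-fold higher and 0.553% lower at 2 weeks, and 1.82% and 0.875% at 8 weeks. In RNA of the whole heart, fewer cells of a type and less RNA per cell cannot be told apart.

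**Figure D1:**
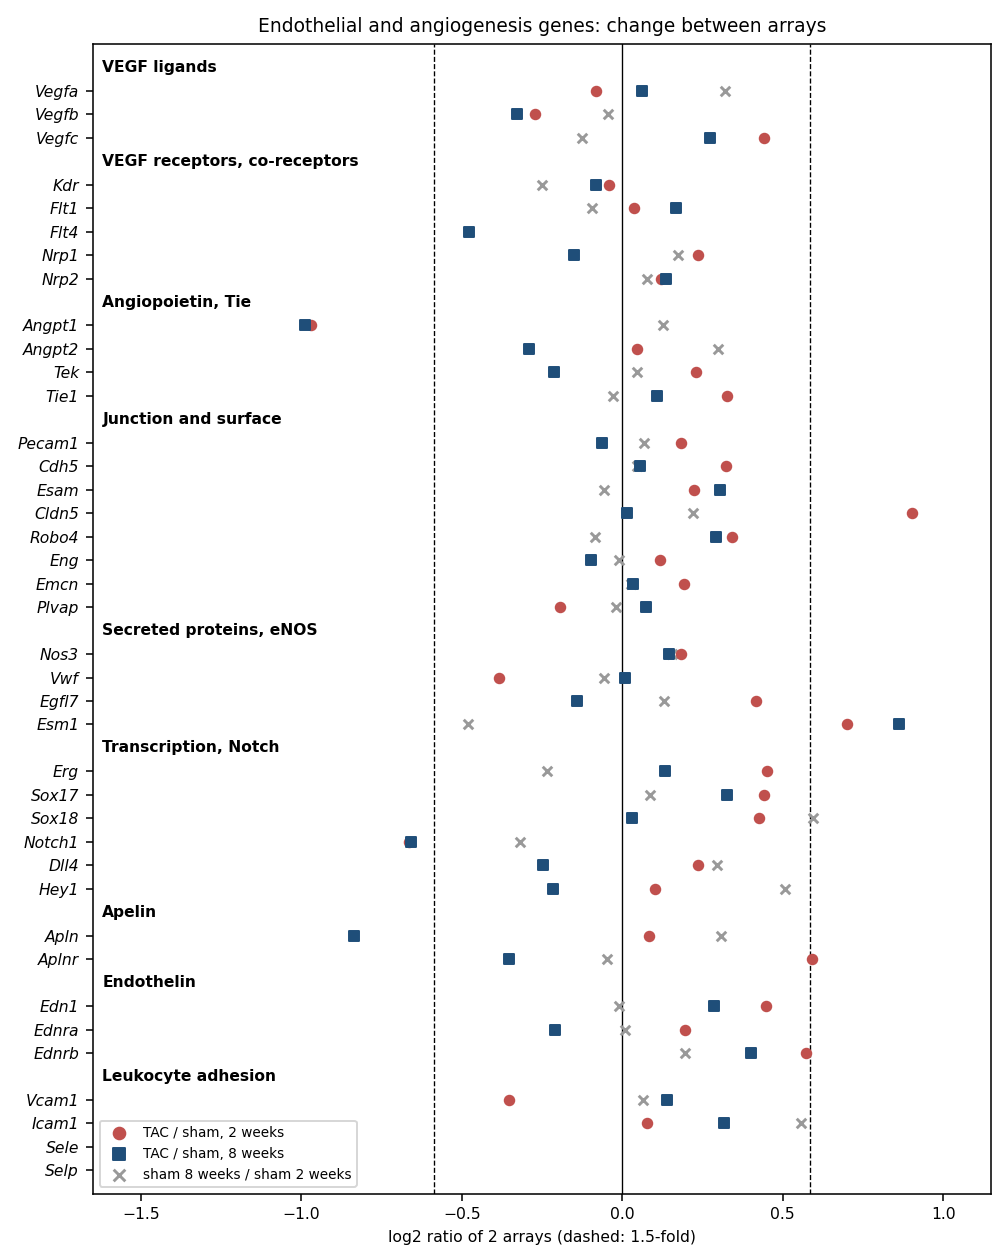
Log2 ratio of 2 arrays for each member, grouped by role, for TAC over sham at 2 weeks (circles), TAC over sham at 8 weeks (squares) and sham at 8 weeks over sham at 2 weeks (crosses), with 1.5-fold marked by dashed lines. Angpt1 and Notch1 lie left of the lower line at both times and Esm1 right of the upper line, while Cldn5 passes it only at 2 weeks and Apln passes the lower line only at 8 weeks; Flt4 at 2 weeks, Sele and Selp have no point because no pair of arrays measured them both well above background.

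The largest decrease among the members at both times belonged to Angpt1, the ligand of Tie2 that is made by cells around the endothelium. Its normalised signal was 3.146 on the sham and 1.607 on the TAC array at 2 weeks, and 3.432 and 1.731 at 8 weeks. Both TAC arrays lay well below both sham arrays, by 1.96-fold at 2 weeks and 1.98-fold at 8 weeks, and the sham arrays differed by 1.09-fold. Among all genes tested Angpt1 ranked 89th from the lowest at 2 weeks and 133rd at 8 weeks. Angpt2, the ligand that endothelial cells release and that competes with angiopoietin 1, had a log2 change of 0.045 at 2 weeks and of -0.29 at 8 weeks, neither past the threshold. The receptor Tek, which encodes Tie2, stood at 0.7137 and 0.8365 at 2 weeks in sham and TAC hearts and at 0.7371 and 0.6356 at 8 weeks, so that its TAC array was the higher at 2 weeks and the lower at 8 weeks. Tie1, the partner receptor of Tie2, exceeded its sham level by 1.25-fold at 2 weeks and by 1.08-fold at 8 weeks. Of these 4 genes Angpt1 was the only one to pass 1.5-fold, at either time.

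None of the 3 VEGF ligands passed the threshold. Vegfa, which drives the growth of blood vessels, stood at 11.05 on the sham and 10.44 on the TAC array at 2 weeks, and at 13.81 and 14.42 at 8 weeks. The arrays of one time differed less than those of different times, with 1.25-fold between the sham arrays, and the second probe of Vegfa had a log2 change of 0.037 at 2 weeks, where the first had -0.082. Vegfb, a ligand of Flt1 that is abundant in heart muscle, was 46.41 and 38.47 in sham and TAC hearts at 2 weeks and 44.99 and 35.83 at 8 weeks. Both of its TAC arrays lay below both sham arrays, by 1.21-fold and 1.26-fold. Vegfc, the ligand of Flt4 that drives lymphatic growth, went the other way, with 2.017 and 2.743 at 2 weeks and 1.85 and 2.237 at 8 weeks. Its TAC arrays were 1.36-fold and 1.21-fold above the sham array of the same time.

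None of the VEGF receptors and co-receptors tested passed the threshold either. Kdr, the main signalling receptor for VEGF-A on endothelial cells, stood at 45.79 and 44.5 at 2 weeks and at 38.48 and 36.39 at 8 weeks in sham and TAC hearts. The pair of arrays at each time differed by less than 1.06-fold, and less than the 1.19-fold between the sham arrays. A second probe for Kdr, spotted 10 times, read 16.3 and 18.71 at 2 weeks and 15.4 and 13.33 at 8 weeks, with an SD between spots of at most 0.057 on the log2 scale, so the probes of this gene differed in the direction of the change at 2 weeks. Flt1, which binds VEGF-A and acts partly as a decoy, was 1.03-fold higher on the TAC array at 2 weeks, and the ratio was 1.12-fold at 8 weeks. The co-receptor Nrp2 was 1.09-fold and 1.10-fold higher, and Nrp1 had log2 changes of 0.24 and -0.15. Flt4, the receptor of lymphatic endothelium, was not well above background on the sham array at 2 weeks. It read 0.1079 on the TAC array, at least 1.80-fold higher. The sham array at 8 weeks was also at least 1.945-fold above that at 2 weeks. At 8 weeks its level was 0.1166 on the sham and 0.08377 on the TAC array, a log2 change of -0.48. At signals this low the spot noise was 0.35 at either time.

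Notch1, the receptor through which endothelial cells restrain the sprouting of their neighbours, fell at both times. It read 8.412 on the sham and 5.304 on the TAC array at 2 weeks, and 6.74 and 4.269 at 8 weeks. Both TAC arrays lay below both sham arrays, and the fall was 1.59-fold at 2 weeks and 1.58-fold at 8 weeks, with 1.25-fold between the sham arrays. A second Notch1 probe was not well above background on any array. At 8 weeks the log2 change of -0.66 moved to -0.49, inside the threshold, when signals were not normalised between arrays. Its ligand Dll4, found on arterial and leading cells, read 0.5884 and 0.6928 at 2 weeks and 0.7217 and 0.6082 at 8 weeks, higher after TAC at the first time and lower at the second. Hey1, a transcription factor switched on by Notch, had log2 changes of 0.10 and -0.22. Outside the members, Notch4, the other Notch receptor of endothelium, had log2 changes of 0.40 and 0.41, and Jag1, another Notch ligand, of -0.14 and 0.19. None of these passed 1.5-fold.

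The endothelial transcription factors among the members stood higher on the TAC arrays at 2 weeks, without passing the threshold. Sox17, an arterial factor, read 1.374 and 1.868 at 2 weeks and 1.46 and 1.83 at 8 weeks, so that both TAC arrays lay above both sham arrays, by 1.36-fold and 1.25-fold. The second Sox17 probe had nearly the same log2 changes, 0.40 and 0.27, as the brightest one, 0.44 and 0.33. Erg, an ETS factor that maintains endothelial identity, read 0.7913 and 1.082 at 2 weeks and 0.6733 and 0.7393 at 8 weeks. Its 2 probes disagreed in size, with log2 changes of 0.45 and 1.06 for the earlier pair and 0.13 and 0.37 for the later. The gap at 2 weeks was the widest among the members with 2 or more probes well above background on all arrays. The second Erg probe was dim, at 0.0859 and 0.1795 at 2 weeks, levels where the spot noise was 0.35. The mean of the Erg probes passed 1.5-fold at 2 weeks. Sox18, a factor of vascular and lymphatic development, was 2.62 on the sham array at 2 weeks and between 3.522 and 4.041 on the other arrays. Its sham arrays differed by 1.51-fold, more than the 1.34-fold between TAC and sham at 2 weeks.

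Apelin and its receptor form a peptide system of endothelium and heart muscle that supports contraction and vessel growth. Apln, the ligand, read 1.516 on the sham and 1.609 on the TAC array at 2 weeks, and 1.876 and 1.052 at 8 weeks. The array of TAC hearts at 8 weeks was the lowest of the 4 and that of sham hearts at the same time the highest, a 1.78-fold fall, while at 2 weeks the ratio was 1.06. The receptor Aplnr read 0.645 and 0.9714 at 2 weeks, a 1.51-fold rise just past the threshold, and 0.6248 and 0.4891 at 8 weeks, a log2 change of -0.35. The log2 change of 0.59 at 2 weeks became 0.55 with the array median in place of the 75th percentile and 0.39 with normexp background correction, both inside the threshold. The highest and lowest levels of Aplnr were the 2 TAC arrays, with both sham arrays between them. Subtracting the log2 change at 2 weeks from that at 8 weeks gave -0.92 for Apln and -0.94 for Aplnr, the largest such differences among the members tested at both times. Like those of the other members they could not be tested, since each time has 1 pair of arrays.

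All 3 endothelin genes had positive log2 changes at 2 weeks and none passed the threshold. Edn1, the vasoconstrictor made by endothelium and stretched muscle, was measured with 10 spots, at 0.2105 on the sham and 0.2874 on the TAC array at 2 weeks and at 0.2093 and 0.255 at 8 weeks. The SD between spots on the log2 scale was 0.14, 0.10, 0.20 and 0.079 on these 4 arrays in the same order. Both TAC arrays lay above both sham arrays, by 1.36-fold and 1.22-fold, while the sham arrays were 1.01-fold apart. With normexp background correction the log2 changes of 0.45 and 0.29 became 0.19 and 0.057. Ednrb, the endothelin receptor of endothelium, read 0.5012 and 0.7451 at 2 weeks and 0.5736 and 0.757 at 8 weeks. Its TAC array stood 1.49-fold above sham at 2 weeks, just inside the threshold, and 1.32-fold above at 8 weeks, and its 2 probes differed by at most 0.018 in their log2 changes. Ednra, the receptor of smooth muscle and myocytes, read 6.721 and 7.706 at 2 weeks and 6.76 and 5.84 at 8 weeks, above its sham array at the first time and below it at the second.

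**Figure D2:**
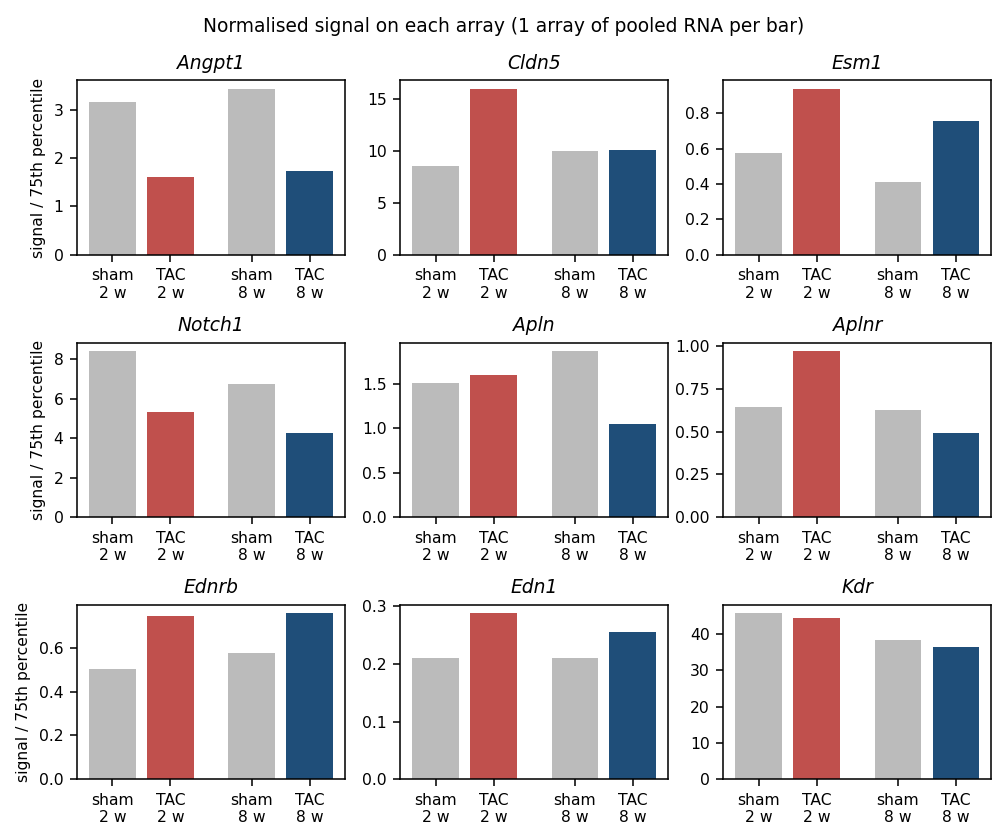
Normalised signal (processed signal over the 75th percentile of the array, linear axis from 0) of 9 members on each array, with 1 bar per array of pooled RNA and no error bar because each condition has 1 array; grey bars are sham hearts, red bars TAC hearts at 2 weeks and blue bars TAC hearts at 8 weeks. Both TAC bars are below both sham bars for Angpt1 and Notch1 and above them for Esm1, Ednrb, Edn1 and Cldn5, although Cldn5 at 8 weeks differs by only 1.01-fold, and Kdr bars within a time are nearly level.

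Among the junction and surface proteins Cldn5 stood out at 2 weeks. This claudin of endothelial tight junctions read 8.588 on the sham and 16.05 on the TAC array at 2 weeks, a 1.87-fold rise and the largest among the members at that time. At 8 weeks it read 10.02 and 10.11, so that the TAC array at 2 weeks stood alone above the other 3. The other junction proteins did not share this size of change. Cdh5, the cadherin of endothelial junctions, was 1.25-fold and 1.04-fold higher after TAC, and Pecam1, an adhesion protein of all endothelium, was 1.14-fold higher at 2 weeks and 1.04-fold lower at 8 weeks. Esam, another adhesion protein of the junction, was 1.17-fold and 1.24-fold higher. Robo4, a receptor that stabilises vessels, read 24.91 and 31.55 at 2 weeks and 23.46 and 28.74 at 8 weeks, with both TAC arrays above both sham arrays. Eng, a co-receptor for TGF-beta family ligands, and Emcn, a sialomucin of capillaries and veins, stayed within 1.2-fold at both times. So did the brightest probe of Plvap, a protein of the diaphragms over endothelial pores. The second Plvap probe had a log2 change of -0.29 at 8 weeks, where the brightest had 0.075.

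Esm1 was the only member over 1.5-fold higher at both times. It encodes endocan, a proteoglycan secreted by endothelial cells, in particular by those at the front of growing vessels. Esm1 read 0.5771 on the sham and 0.9387 on the TAC array at 2 weeks, and 0.4138 and 0.753 at 8 weeks. Both TAC arrays lay above both sham arrays, and the rise was 1.63-fold at 2 weeks and 1.82-fold at 8 weeks, with a sham array at 8 weeks that was 1.39-fold below that at 2 weeks. With normexp background correction these log2 changes of 0.70 and 0.86 became 0.49 and 0.57, both inside the threshold. Egfl7, a secreted protein of the vessel wall, read 118.9 and 158.8 at 2 weeks and 130.2 and 118.2 at 8 weeks, so that only the TAC array at 2 weeks stood apart from the others. Vwf, the clotting factor stored in endothelial cells, read 14.14 and 10.84 at 2 weeks and 13.58 and 13.67 at 8 weeks, and here the TAC array at 2 weeks was the low one. Nos3, the endothelial nitric oxide synthase, was 1.14-fold and 1.11-fold higher after TAC, and its second probe had log2 changes of 0.20 and 0.087 where the brightest had 0.18 and 0.15.

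The leukocyte adhesion genes gave no call. Vcam1, which holds monocytes and lymphocytes, read 1.998 and 1.565 at 2 weeks and 2.089 and 2.301 at 8 weeks, lower after TAC at the first time and slightly higher at the second. The second Vcam1 probe had log2 changes of -0.51 and 0.26. Icam1, a ligand of leukocyte integrins, read 0.187 and 0.1974 at 2 weeks and 0.2752 and 0.343 at 8 weeks. Its 2 arrays at 8 weeks lay above its 2 arrays at 2 weeks, with 1.47-fold between the sham arrays and 1.25-fold between TAC and sham at 8 weeks. Sele, the selectin that endothelium makes when activated, was not well above background on any array. Selp, a selectin stored in endothelium and platelets, was well above background on the TAC arrays only. Its TAC signals were 1.06-fold at 2 weeks and 1.08-fold at 8 weeks above the dim sham signals. The SD between its spots was between 0.25 and 0.55 on the log2 scale, so these ratios show no minimum rise.

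Over the 36 members that were well above background on all 4 arrays, 17 had a positive log2 change at both times and 4 a negative one at both times. Another 11 were positive at 2 weeks and negative at 8 weeks, and 4 the reverse. In Tek, Dll4, Aplnr and Ednra both of these opposite changes were larger than the 0.18 of spot noise over all levels, which held for 2.54% of all genes. For the counts of sign without a limit on size, the shares over all genes are not given here. Both TAC arrays lay above both sham arrays for 14 members, 38.9% beside 23.8% of all 14297 genes measured on all arrays. These were Vegfc, Flt1, Nrp2, Tie1, Cdh5, Esam, Cldn5, Robo4, Emcn, Nos3, Esm1, Sox17, Edn1 and Ednrb. The count set no limit on size, and some of these log2 changes were below the 0.11 of spot noise for such signals. Examples are Flt1 at 2 weeks, 0.036, and Cldn5, Emcn and Cdh5 at 8 weeks, 0.014, 0.033 and 0.056. The count was not repeated under the alternative ways of processing. Both TAC arrays lay below both sham arrays for 3 members, Vegfb, Angpt1 and Notch1, 8.33% beside 25.7% of all genes. Changes over 1.5-fold in the same direction at both times were found for Esm1, Angpt1 and Notch1, while 2.09% of all genes were over 1.5-fold higher at both times and 1.14% lower. By their brightest probes, the members within 1.2-fold at both times numbered 14, namely Vegfa, Kdr, Flt1, Nrp1, Nrp2, Tek, Pecam1, Eng, Emcn, Plvap, Nos3, Dll4, Hey1 and Ednra. A second probe passed 1.2-fold for Nrp2, 1.29-fold higher at 2 weeks, and at 8 weeks for Flt1, 1.265-fold higher, and Plvap, 1.225-fold lower.

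The sham arrays differ from each other in time after surgery and age but not in the load on the heart. Between them 36 members were tested, and 1, Sox18, rose from 2 to 8 weeks, which is 2.78% of the members beside 1.6% of all 14406 genes tested. None fell, beside 1.22% of all genes. The median log2 change of the members was 0.046, with 21 above 0 and 15 below, and over all genes it was 0.024. The share above 0 was 58.33% of members, close to the 56% of all genes. The changes of the members ran from -0.48 for Esm1 to 0.59 for Sox18. Between TAC and sham they ran from -0.97 to 0.90 at 2 weeks and from -0.99 to 0.86 at 8 weeks. Each of the comparisons with TAC shares a sham array with this one.

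**Figure D3:**
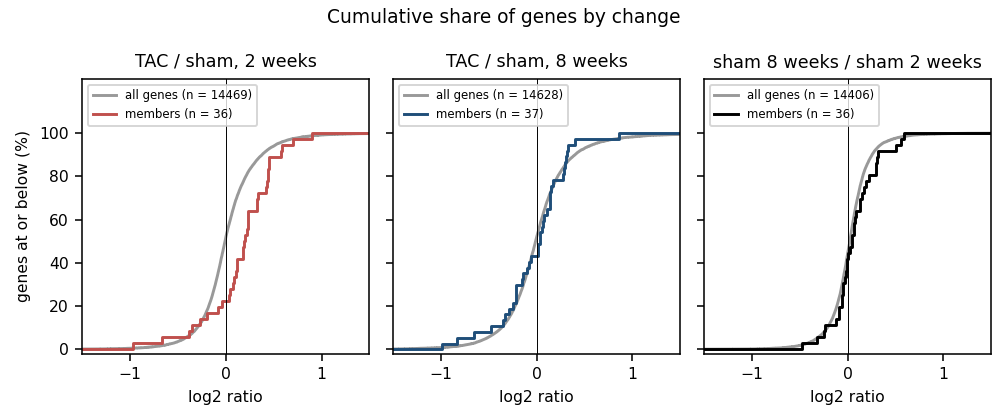
Cumulative share of genes (vertical axis, percent) at or below a given log2 ratio of 2 arrays (horizontal axis) for the members, in colour or black, and for all genes tested, in grey, in the 3 pairs of arrays. At 2 weeks after TAC the curve of the members lies to the right of all genes over most of its length, with medians of 0.19 and -0.0078, whereas at 8 weeks and between the sham arrays the curves nearly coincide at their middle.

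Other genes of the same biology were read from lists of endothelial markers, transcription factors, ligands, receptors, inhibitors and hypoxia targets. Of 22 other endothelial markers tested at 2 weeks, 1 rose and none fell, with a median log2 change of 0.21, and at 8 weeks none of 22 passed, with a median of 0.14. The gene that rose was Cd34, a surface sialomucin of endothelium and of stem and stromal cells, at 32.61 on the sham and 52.58 on the TAC array at 2 weeks and 32.98 and 45.42 at 8 weeks. None of 21 other transcription factors of endothelial cells passed at either time, with medians of 0.25 and 0.020. The median change at 2 weeks was thus above 0 in both lists, as in the members.

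Among 16 other angiogenic ligands tested at 2 weeks, 1 rose and none fell, and among 16 at 8 weeks, 1 rose and 1 fell, with medians of 0.078 and -0.21. Angptl4, an inhibitor of lipoprotein lipase with effects on vessels, read 15.29 and 23.13 at 2 weeks and 8.575 and 4.705 at 8 weeks, a 1.51-fold rise and then a 1.82-fold fall, and its sham arrays also differed by more than 1.5-fold. Figf, which encodes VEGF-D, was 1.68-fold higher at 8 weeks. Of the 17 other receptors tested at 2 weeks, the integrin subunits Itgav, Itgb3 and Itga5 rose by 1.54-fold, 1.57-fold and 1.59-fold and none fell, with a median of 0.31. Of 16 tested at 8 weeks, Itgb3 rose by 1.87-fold, Ramp3, a subunit of the adrenomedullin receptor, by 2.01-fold and Cxcr4, the receptor of Cxcl12, by 1.69-fold, and none fell, with a median of 0.24. The sham arrays of Cxcr4 also differed by 1.51-fold.

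Of 9 inhibitors of angiogenesis tested, 3 rose and none fell at 2 weeks, and 5 rose and 1 fell at 8 weeks, with medians of 0.37 and 0.61. Thbs1, the matrix protein thrombospondin 1 that restrains endothelial growth, read 0.1806 and 0.7136 at 2 weeks and 0.3981 and 1.607 at 8 weeks, rises of 3.95-fold and 4.04-fold, and its sham arrays also differed by more than 1.5-fold. Serpinf1, which encodes the antiangiogenic factor PEDF, rose by 1.79-fold and 2.48-fold, and Col18a1, the collagen that gives rise to endostatin, by 1.75-fold and 1.53-fold. Adamts1, a matrix protease, and Sema3f, a semaphorin that binds neuropilins, passed the threshold only at 8 weeks, at 2.12-fold and 1.93-fold, and Thbs2, a relative of Thbs1, fell by 1.89-fold at that time. Of the hypoxia targets 1 of 15 rose at 2 weeks and 1 of 14 at 8 weeks and none fell, with medians of -0.067 and 0.22. Car9, a carbonic anhydrase induced by low oxygen, rose by 1.61-fold at 2 weeks, from 0.114 to 0.1838, levels where the spot noise was 0.35. At 8 weeks it read 0.05374 in sham hearts, not well above background, and 0.3811 after TAC. The ratio of 7.09 rests on that dim sham signal, which was itself 2.12-fold below the sham signal at 2 weeks. Hmox1, the heme oxygenase, was the hypoxia target that rose at 8 weeks, by 1.67-fold.

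The cell types around the endothelium moved to different extents. Of 8 fibroblast markers 5 rose and none fell at each time, Col1a1, Col1a2, Col3a1, Lum and Postn, with medians of 0.89 and 0.85, and the summed normalised signal of the list was 207.7 and 232.3 in the sham arrays and 287.4 and 338.7 in the TAC arrays. None of 10 markers of pericytes and smooth muscle, the mural cells, passed at either time, with medians of 0.30 and 0.083. Of 8 macrophage markers 2, Cd14 and Fcgr1, rose at 2 weeks and 1, Cd14, rose at 8 weeks, with medians of 0.44 and 0.40 and a summed signal between 184.4 and 193.0 on all arrays. Most of this sum came from the probe of Itgam, and without it the sum was 34.77 and 43.95 at 2 weeks in sham and TAC hearts and 35.79 and 45.71 at 8 weeks. None of 8 cardiomyocyte markers passed at 2 weeks and 1, Ryr2, fell at 8 weeks, with medians of -0.17 and -0.18. Of 7 proliferation genes tested Mki67, Ccnb2, Birc5, Rrm2 and Ccna2 rose and Cdk1 fell at 2 weeks, and the first 5 of these rose and none fell at 8 weeks, with medians of 0.77 and 1.23. The log2 change of Cdk1 at 2 weeks was -1.20. Between the sham arrays 1 of the 7 fell from 2 to 8 weeks, by more than this, at -1.76. Which part the makeup of the tissue had in the values of the members was not tested.

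Lymphatic endothelium has few probes here, with 4 of 5 tested. Pdpn, a surface protein of lymphatic vessels that activated stromal cells also make, was the only one to pass, at 1.61-fold and 1.96-fold, and the defining factor Prox1 had log2 changes of -0.56 and -0.47. None of 4 endocardial markers passed at either time, with medians of -0.18 and 0.034. Of the platelet markers tested none of 4 passed at 2 weeks and 1 of 4, Gp1bb, fell at 8 weeks, with a log2 change of -0.68. Between the sham arrays 1 of 4 platelet markers rose from 2 to 8 weeks, with a log2 change of 0.71. Of 2 mesothelial markers tested 1, Msln, rose at 2 weeks and none passed at 8 weeks, and neither of 2 erythroid genes passed at either time.

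**Figure D4:**
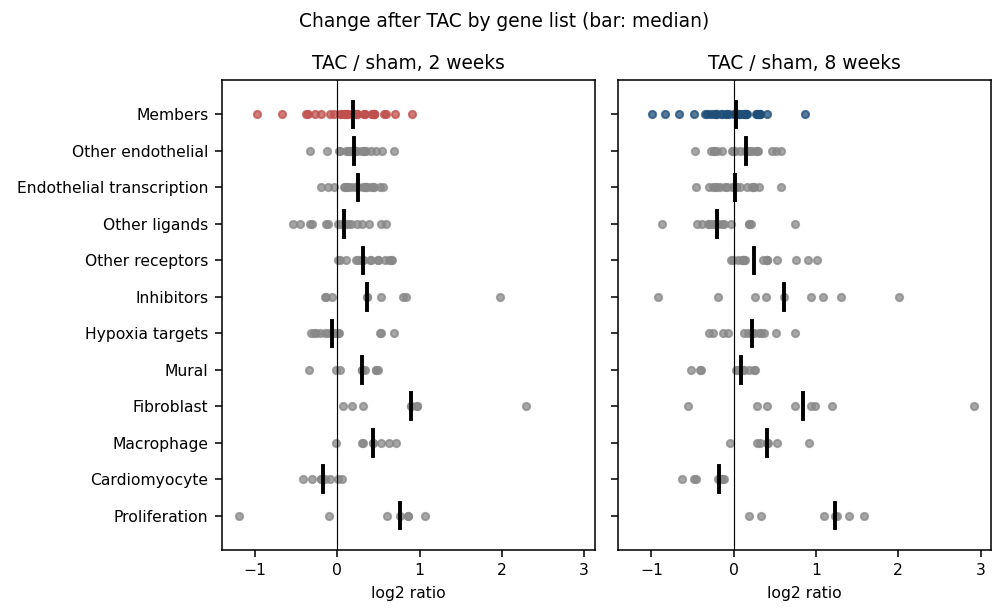
Log2 ratio of TAC over sham at 2 weeks (left) and 8 weeks (right), with 1 point per gene tested and a black bar at the median of each list, for the members (coloured) and for lists of related genes and cell types (grey). The medians at 2 weeks are 0.89 for fibroblast, 0.77 for proliferation, 0.44 for macrophage and 0.37 for inhibitor genes, and the members centre on 0.19 at 2 weeks and 0.031 at 8 weeks.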

How the data were processed

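Pooled total RNA of sham and TAC hearts was hybridized to one-color Agilent SurePrint G3 Mouse GE 8x60K arrays, 1 per condition. The authors deposited the processed signal, an intensity per spot after background subtraction and spatial detrending, not normalised between arrays. The file headers name Agilent Feature Extraction 10.7.3.1 and build mm9, and the submitters' processing notes name version 9.1. In a second deposited table each array's intensity is multiplied by its own constant and stays linear, and how the constant was chosen is not given in the sources used here. The study's methods name GeneSpring GX11.

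Log2 of the signal was taken, outlier spots were left out, spots of a probe were averaged, and each array was centred on its 75th percentile over the 55681 probes that are not controls. A probe was well above background when at least 0.5 of its spots were so marked. Genes were named by matching transcript accessions without versions to RefSeq and GENCODE tables of GRCm38.p6, which covered 29501 probes and 21762 genes and all 39 members. A gene with a probe above background on 1 array of a pair got a bound, for which the dim array took the lowest signal that passed as well above background there, or the probe's own where that was higher. Counts took a threshold of 1.5-fold. The members and lists were chosen with earlier results of these data known. Lists held other ligands, receptors, inhibitors, transcription factors, endothelial markers, hypoxia targets and markers of cell types and proliferation, and 2 listed genes, Ccl21a and Hbb-b1, matched no probe. The list of lymphocyte markers is not reported here. Values on all arrays were given for members past 1.5-fold at either time and for up to 10 more by size of change, and other members were named with some of their values to complete each group. Of list genes, those past 1.5-fold were named, at most 5 a list, and Col18a1, Cdk1, Notch4, Jag1 and Prox1 were named besides after their values were seen. Slide and scan hold all 4 arrays and form no batch. Counting was tested on simulated data. Alternatives were quantile normalisation, the array median, no normalisation, normexp with an offset of 50 (limma 3.58.1 in R 4.3.3) on the median signal, the deposited table, other filters on dim probes, the mean of all probes, outlier spots kept and a threshold of 2-fold. Python 3.11.15, numpy 2.4.6 and pandas 2.3.3 were used.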

Additional observations from a re-analysis of the deposited data

Results flagged for a closer look

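Among the members, 4 had a log2 change after TAC that was positive at 2 weeks and negative at 8 weeks with both changes larger than 0.18, the spot noise over all signal levels. By the 0.11 for signals of at least 0.25, Nrp1 and Egfl7 would join them. Subtracting the log2 change at 2 weeks from that at 8 weeks gave -0.44 for Tek, which encodes the angiopoietin receptor Tie2, -0.48 for the Notch ligand Dll4, -0.94 for the apelin receptor Aplnr and -0.41 for the endothelin receptor Ednra. Over all genes measured on all 4 arrays, 363 of 14297, or 2.54%, moved the same way by this measure. With 1 array per condition the difference between the times was not tested.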

How the results depend on the processing

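Of 31 changes of named members, the 9 past the threshold kept their sign under every alternative run, and the median over the members lay between 0.15 and 0.22 at 2 weeks. At 8 weeks it lay between 0.013 and 0.20, with 0.12 under the array median and 0.20 with no normalisation, where the median of all genes was 0.076 and 0.16. Quantile normalisation, the other filters on dim probes and keeping outlier spots lost none of the 9 calls, although either of the other filters added Flt4 at 2 weeks. The array median in place of the 75th percentile lost Notch1 at 8 weeks and Aplnr at 2 weeks, and no normalisation lost Notch1 at 8 weeks. Normexp background correction moved 8 of the 31 changes by more than the spot noise and lost Esm1 at both times and Aplnr at 2 weeks, which left 1 member higher at 2 weeks and 0 at 8 weeks. The deposited table added Ednrb, and the mean of all probes added Erg, both at 2 weeks. Angpt1 lay close to 2-fold lower, and some alternatives carried it past that. Its log2 change was -1.009 at 2 weeks with the array median. At 8 weeks it was -1.005 with quantile normalisation and -1.006 with the deposited table. With the main normalisation and a threshold of 2-fold, 0 members were higher and 0 lower at 2 weeks, and 0 higher and 0 lower at 8 weeks. The cause was not tested, except that a higher threshold passes fewer genes by construction. Low signals limit Flt4, Icam1 and Sele, since the noise of a ratio of single spots was 0.35 below a signal of 0.25 and 0.61 for spots not well above background.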
